A study of Homo sapiens with 12 samples.

Results

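The genes of cholesterol and fatty acid synthesis were followed in HK-2, an immortalised human cell line that derives from proximal tubule epithelium of the kidney. The list holds 34 genes, from the first condensation of acetyl-CoA to the last sterol reductases, with the regulators, transport proteins and fatty acid enzymes that go with them. Each gene was read from the probe sets of an Affymetrix array, groups of short probes against 1 transcript, that are annotated to that gene alone, and where a gene had several, the one brightest on average across the 12 arrays was used. This gave 31 of the 34 genes, out of 19775 genes in all. CYP51A1 and FADS1 were left out because their probe sets also name another gene, and FDFT1 was not analysed here. FADS2, which encodes a fatty acid desaturase, stayed under log2 4 on all 12 arrays and was not tested, so 30 genes were tested among 11184.

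The 4 groups were cells given Aa for 24 h, vehicle control cells at 24 h, cells given Aa for 48 h, and vehicle control cells at 48 h. Aa is the labels' name for a compound. All sample titles, those of controls included, carry the letters hd, read here as a high dose. Each group has 3 arrays, labelled as biological replicates. The study looked for expression signatures of toxicity in these cells. The sources used here do not say what Aa is, at which dose it was given or in which vehicle. All cells, controls included, grew in 1 medium with added EGF, hydrocortisone, insulin, transferrin and selenite, and a single cell line was used. Values are the deposited log2 expression values, on which a difference of 1 is a doubling, and their precision is limited by the number of arrays.

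Over all probe sets, arrays correlated at 0.9941 to 0.9966 within a group, and at 0.9488 to 0.9755 between Aa and control. The rise of signal from the 5′ to the 3′ end of control transcripts, a sign of RNA quality, was 0.264 to 0.547 log2 on Aa arrays and 0.246 to 0.355 on control arrays at 24 h, and 0.431 to 0.68 and 0.235 to 0.418 at 48 h. Of 11 proximal tubule markers on the array only SLC3A1 and SLC4A4 passed the expression filter (over log2 4 on at least 3 arrays), and LRP2, CUBN, AQP1 and SLC34A1 lay near background in all groups, so the label of a proximal tubule cell rests on few of its defining transcripts here. All 6 epithelial markers passed. By summed level the epithelial markers reached log2 14.39 to 14.6 on Aa arrays and 14.87 to 15.05 on control arrays at 24 h, and 14.36 to 14.73 and 14.66 to 14.91 at 48 h. Of 5 leukocyte markers 0 passed the filter, and of 5 endothelial markers only TEK did, near the filter. Of 7 fibroblast markers COL1A1, DCN and LUM passed, with a summed level of 11.85 to 12.35 on Aa arrays and 12.26 to 12.77 on control arrays at 24 h, and 12.03 to 12.24 and 12.18 to 12.44 at 48 h. The summed level of the proximal tubule markers was 9.98 to 11.21 on Aa arrays and 11.15 to 12.08 on control arrays at 24 h, and 8.93 to 9.97 and 11.92 to 13.04 at 48 h. The part of these shifts in the results below was not tested. In such bulk RNA, fewer cells of a kind and less RNA per cell cannot be told apart.

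Cells make cholesterol from acetyl-CoA through mevalonate, farnesyl diphosphate, squalene and lanosterol. Transcription of most of these enzymes is driven by the SREBP factors, encoded by SREBF1 and SREBF2. These are held in the endoplasmic reticulum by SCAP and the INSIG proteins while sterol is plentiful, and are cut free in the Golgi when it is scarce. SREBP encoded by SREBF1 also drives fatty acid synthesis, and INSIG1 is itself one of the genes that SREBP activates. In the proximal tubule these lipids serve the large membrane surface of the brush border.

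The sequences just before the transcription starts of 5 members are shown because the first 4 belong to the genes with the largest falls in their step of the pathway, and the fifth to the gene of the SREBP factor that did not pass the test in its brightest probe set. Each is the 250 bases before a RefSeq start on build GRCh38.p14, 5′ to 3′ on the gene's own strand. Capitals mark the CCAAT box (CCAAT or its reverse complement ATTGG), to which the factor NF-Y binds, and a sterol regulatory element (TCACNCCAC, on either strand), the kind of site that SREBP binds. The windows are chr7:155297628-155297877 (plus strand) for INSIG1, chr11:65111622-65111871 (plus) for TM7SF2, chr5:43313413-43313662 (minus) for the more upstream of 2 HMGCS1 starts, chr4:110198616-110198865 (minus) for ELOVL6 and chr22:41832855-41833104 (plus) for SREBF2.
INSIG1: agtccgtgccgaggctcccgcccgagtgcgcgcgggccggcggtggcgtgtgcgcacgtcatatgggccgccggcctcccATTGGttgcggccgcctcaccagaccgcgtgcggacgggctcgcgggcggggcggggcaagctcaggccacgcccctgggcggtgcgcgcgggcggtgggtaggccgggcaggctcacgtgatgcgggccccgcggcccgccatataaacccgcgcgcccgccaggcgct
TM7SF2: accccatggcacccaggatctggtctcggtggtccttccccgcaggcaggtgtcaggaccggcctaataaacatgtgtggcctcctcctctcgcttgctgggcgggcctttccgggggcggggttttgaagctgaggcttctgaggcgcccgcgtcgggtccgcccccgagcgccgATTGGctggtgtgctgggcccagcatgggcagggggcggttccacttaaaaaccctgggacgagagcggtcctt
HMGCS1: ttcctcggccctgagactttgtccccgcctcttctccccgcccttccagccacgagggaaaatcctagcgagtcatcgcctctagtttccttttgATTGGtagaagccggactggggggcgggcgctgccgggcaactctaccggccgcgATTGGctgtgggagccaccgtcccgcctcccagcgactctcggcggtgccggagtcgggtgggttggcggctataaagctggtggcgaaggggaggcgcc
ELOVL6: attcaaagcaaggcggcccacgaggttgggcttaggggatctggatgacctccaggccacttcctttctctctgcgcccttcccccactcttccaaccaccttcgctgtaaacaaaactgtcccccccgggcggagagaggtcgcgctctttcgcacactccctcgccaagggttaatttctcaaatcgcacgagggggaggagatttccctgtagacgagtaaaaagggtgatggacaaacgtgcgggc
SREBF2: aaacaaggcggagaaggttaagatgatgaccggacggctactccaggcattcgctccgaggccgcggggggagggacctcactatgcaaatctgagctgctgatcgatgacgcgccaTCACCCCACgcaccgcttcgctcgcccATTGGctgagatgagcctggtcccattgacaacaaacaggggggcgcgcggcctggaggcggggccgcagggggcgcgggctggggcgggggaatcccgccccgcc

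A RefSeq window was found for 27 of the 30 tested members. A CCAAT box was present before at least 1 start of 20 of these 27 members (74.1%), against 42.2% of the 9245 tested genes with a window and 32.0% of all 35116 windows. The HMGCS1 window above holds 2 such boxes, those of INSIG1, TM7SF2 and SREBF2 hold 1 each, and that of ELOVL6 holds 0. The letters of the sterol regulatory element were in the window of SREBF2 alone among the members, against 1.22% of tested genes and 0.88% of all windows. A GC box (GGGCGG on either strand), to which Sp1 binds, was found for 26 of the 27 members, against 75.5% of tested genes and 42.6% of all windows. Motifs were counted separately, and their ends can share letters, as in ATTGG and GGGCGG. All 5 sequences above hold at least 1 GC box. These matches describe the letters in the windows and show no binding.

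Most sterol genes were lower in Aa-treated cells at both times, and the fatty acid and lipid genes went both ways at 24 h. Of 24 sterol members 16 fell and 0 rose at 24 h and 15 fell and 2 rose at 48 h, and of 6 fatty acid and lipid members 1 fell and 1 rose at 24 h and 4 fell and 0 rose at 48 h. Whether the 2 sets of genes differ was not tested. At 24 h 17 of 30 members fell (56.7%) and 1 rose by limma at an adjusted p under 0.05. The fit behind these counts did not pair arrays by replicate number. Of all genes tested 49.1% passed at 24 h, 22.8% lower and 26.3% higher. At 48 h 19 members fell (63.3%) and 2 rose, while 64.5% of all genes passed, 33.9% lower and 30.6% higher. The median log2 change of the members was -0.454 at 24 h and -0.542 at 48 h, and that of all genes tested was 0.023 and -0.025. Members that fell by at least 1 on the log2 scale numbered 4 at 24 h and 9 at 48 h, against 9.76% and 17.3% of all genes. With each array scaled to the spiked bacterial hybridisation controls, 21 members were lower and 0 higher at 24 h, with 34.6% of all genes lower and 14.7% higher, and 23 members were lower and 0 higher at 48 h, with 53% and 16%. In all, 14 members fell at both times, 2 passed in opposite directions, 2 passed only at 24 h, 5 passed only at 48 h and 7 passed at neither. The shares of all genes with such joint calls were not counted, so these counts have no background beside them. The arrays of the groups did not overlap for 19 members with lower values in Aa cells and 1 with higher values at 24 h, where 29% and 30.8% of all genes did not overlap, and for 21 and 2 members at 48 h, against 36.1% and 33%.

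**Figure D1:**
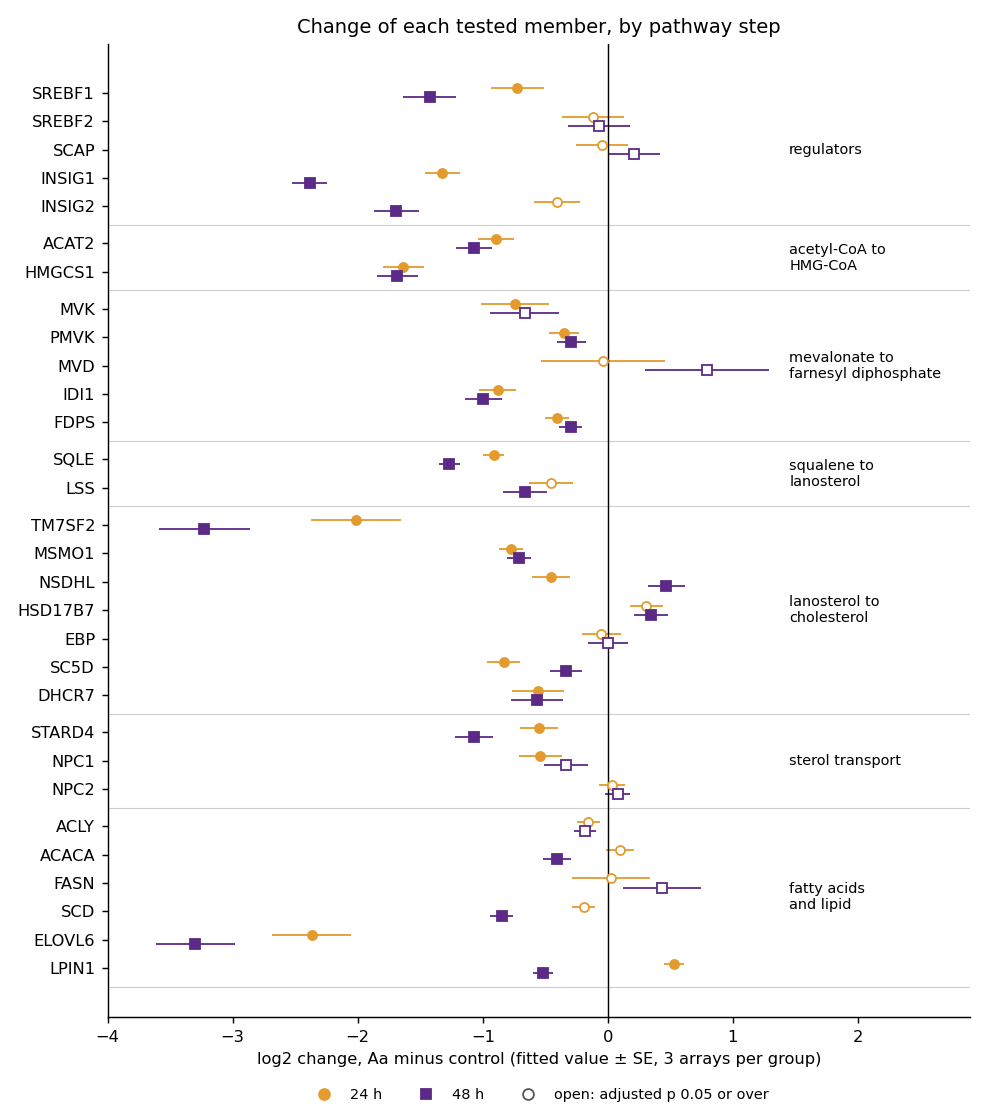
Fitted log2 change, Aa minus control, of the 30 tested members on the horizontal axis, with bars of 1 SE, ordered by pathway step down the page (circles 24 h, squares 48 h, open symbols an adjusted p of 0.05 or over). Most sterol enzymes lie left of 0 at both times, ELOVL6 and TM7SF2 lie farthest left at 48 h (-3.30 and -3.23), and NSDHL and LPIN1 lie on opposite sides of 0 at the 2 times.

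Among the regulators, the transcripts of both INSIG proteins and of SREBF1 were lower in Aa-treated cells at 48 h, and those of SREBF2 and SCAP did not pass the test at either time in the probe sets used. INSIG1, whose protein retains SCAP in the endoplasmic reticulum, had log2 values of 10.68, 10.98 and 10.51 in Aa cells, against 12.13, 12.11 and 11.90 in control cells at 24 h. The 48 h values were 10.48, 10.13 and 10.39 in Aa cells, against 12.79, 12.68 and 12.69 in control cells. The groups did not overlap at either time, and the 48 h controls were the highest group. INSIG1 fell by 1.32 (SE 0.139, adjusted p = 2.11e-05) at 24 h, and its change at 48 h was -2.38 (SE 0.139, adjusted p = 1.71e-07), a 5.22-fold fall. Its 3 probe sets changed by -1.53 to -1.32 at 24 h and by -2.41 to -2.29 at 48 h.

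INSIG2 encodes the second protein of this kind. It had log2 values of 8.41, 8.85 and 8.52 in Aa cells, against 9.01, 9.19 and 8.80 in control cells at 24 h. By 48 h the values were 7.97, 7.87 and 7.32 in Aa cells, against 9.28, 9.47 and 9.47 in control cells. The groups overlapped at 24 h and were well apart at 48 h. The change at 24 h was -0.41 (adjusted p = 0.0862, and 0.0398 with the replicate number as a block), and at 48 h INSIG2 fell by 1.69 (SE 0.182, adjusted p = 1.34e-05), a 3.23-fold fall. In the blocked fit 61.5% of all genes passed at 24 h and 73.3% at 48 h, in either direction. At 24 h INSIG2 also passed with quantile normalisation (adjusted p = 0.0477) and hybridisation-control scaling (0.0126).

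SREBF1 had log2 values of 8.38, 7.88 and 8.25 in Aa cells, against 9.01, 8.69 and 8.97 in control cells at 24 h. The second time point gave 7.55, 7.13 and 7.24 in Aa cells, against 9.15, 8.35 and 8.70 in control cells. Aa arrays were below control arrays at both times. SREBF1 fell by 0.72 (SE 0.208, adjusted p = 0.014) at 24 h and by 1.43 (SE 0.208, adjusted p = 0.000124) at 48 h. The 24 h call was lost without Aa 24 h replicate 2 (log2 change -0.578, adjusted p = 0.057), and its adjusted p was 0.000288 in the blocked fit. Over the mean of the 2 SREBF1 probe sets the 24 h change was -0.269 (adjusted p = 0.11) and the 48 h change -0.723. The dimmer of these 2 probe sets averaged log2 4.13 to 4.35 in the groups, near the filter at log2 4. SREBF2, which encodes the factor that mainly drives cholesterol synthesis, changed by -0.12 (adjusted p = 0.72) at 24 h and -0.07 (adjusted p = 0.824) at 48 h in its brightest probe set. A dimmer probe set of SREBF2, with a mean of 5.25 over all arrays, fell by 1.01 at 24 h and by 1.23 at 48 h (adjusted p = 0.0452 and 0.0142 in a fit over all 23669 probe sets above the filter, in which 22.2% and 32.6% were lower). Over the mean of its 3 probe sets SREBF2 passed as lower at both times (-0.493, adjusted p = 0.0466, and -0.59, adjusted p = 0.0162). SCAP, the escort protein of SREBP, changed by -0.05 (adjusted p = 0.873) at 24 h and 0.21 (adjusted p = 0.402) at 48 h. Its 48 h adjusted p was 0.0406 in the blocked fit, and its 48 h value was -0.233 with hybridisation-control scaling.

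Of 13 tested genes among 17 listed for sterol regulation and efflux, 3 rose (23.1%) and 2 fell (15.4%) at 24 h, where 26.3% of all genes were higher and 22.8% lower. At 48 h 5 rose (38.5%) and 2 fell (15.4%), against 30.6% and 33.9% of all genes. MBTPS2 and MBTPS1, which encode the proteases that release SREBP in the Golgi, were the genes that fell. MBTPS2 averaged log2 10.57 in Aa cells and 11.03 in control cells at 24 h, and 10.69 and 11.19 at 48 h (log2 changes -0.46 and -0.50, adjusted p = 0.00396 and 0.00155). MBTPS1 fell by 0.32 and by 0.40 (adjusted p = 0.0176 and 0.00366). MYLIP, a ubiquitin ligase gene of lipoprotein receptor turnover that sterol-sensing LXR receptors activate, averaged log2 9.56 in Aa cells and 8.29 in control cells at 24 h, and 10.44 and 8.38 at 48 h, a 2.41-fold and a 4.18-fold rise. NR1H3, which encodes an LXR receptor, rose by 0.76 at 24 h (adjusted p = 0.00129) and by 0.67 at 48 h (adjusted p = 0.00187). ABCA1, an efflux gene of the list, passed at neither time (0.27, adjusted p = 0.0821, and -0.25, adjusted p = 0.0884). ABCG1, another, lay under log2 4 in every group and was not tested. NCEH1, a cholesteryl ester hydrolase gene, changed by 0.20 at 24 h (adjusted p = 0.414) and rose by 1.02 at 48 h (adjusted p = 0.00079). The list median was 0.20 at 24 h and -0.06 at 48 h.

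Both genes of the steps from acetyl-CoA to HMG-CoA fell at both times, where 22.8% of all genes were lower at 24 h and 33.9% at 48 h. HMGCS1, which encodes the cytosolic HMG-CoA synthase, had log2 values of 10.00, 10.01 and 10.24 in Aa cells, against 11.67, 11.75 and 11.73 in control cells at 24 h. At 48 h it had 9.90, 10.14 and 10.49 in Aa cells, against 11.69, 11.74 and 12.16 in control cells. All 6 Aa arrays lay below all 6 control arrays. The fall was 1.64 (SE 0.164) at 24 h and 1.68 (SE 0.164) at 48 h on the log2 scale, a 3.11-fold and a 3.21-fold fall, and the other probe set of the gene fell by 1.28 and 1.42. ACAT2, the cytosolic thiolase that makes acetoacetyl-CoA, fell by 0.89 (adjusted p = 0.000427) and by 1.07 (adjusted p = 6.88e-05).

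The 5 genes between mevalonate and farnesyl diphosphate moved less. IDI1, the isomerase of isopentenyl diphosphate, had log2 values of 11.58, 11.86 and 11.67 in Aa cells, against 12.38, 12.76 and 12.61 in control cells at 24 h. By 48 h the values were 11.63, 11.92 and 11.94 in Aa cells, against 12.58, 12.86 and 13.03 in control cells. The groups did not overlap, and IDI1 fell by 0.88 (adjusted p = 0.000583) and by 0.99 (adjusted p = 0.000151). The name of its probe set ends in the manufacturer's suffix for probes that can also match other transcripts, and over the mean of all its probe sets the 48 h change was 0.236 (adjusted p = 0.0512). FDPS, the synthase of farnesyl diphosphate, fell by 0.40 (SE 0.0949, adjusted p = 0.0045) and by 0.30 (SE 0.0949, adjusted p = 0.0172). The 48 h call of FDPS was lost without control 48 h replicate 2 or 3 (adjusted p up to 0.054), and its adjusted p was 0.00862 in the blocked fit.

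MVK and PMVK, the kinases that phosphorylate mevalonate in turn, stood near the threshold in the fit without the block. MVK fell by 0.74 (SE 0.273, adjusted p = 0.0423, and 0.00217 in the blocked fit) at 24 h. Its change at 48 h was -0.67 (adjusted p = 0.0515, and 0.003 in the blocked fit). The MVK call at 24 h was lost without any single one of 6 arrays (Aa 24 h replicates 1 and 2, Aa 48 h replicate 3, control 24 h replicates 1 and 3 and control 48 h replicate 1), where the adjusted p ran up to 0.161, and with no expression filter (0.0999) or only the 24 h groups in the fit (0.0669). At 48 h MVK passed with a filter at log2 6 (adjusted p = 0.0474), equal array medians (0.043), hybridisation-control scaling (0.0034), the mean of its probe sets (0.0417), only the 48 h groups (0.0361) and a trended, robust variance (0.0446). PMVK fell by 0.35 (SE 0.118, adjusted p = 0.0286) and by 0.29 (SE 0.118, adjusted p = 0.0487). In the blocked fit the adjusted p of PMVK was 0.0133 at 24 h and 0.0251 at 48 h. The 24 h call of PMVK was lost without Aa 24 h replicate 2 or 3 or control 24 h replicate 2 (adjusted p up to 0.108), with equal array medians (0.0559) and with only the 24 h groups (0.0548). The 48 h call was lost without any single one of 7 arrays (Aa 24 h replicate 2, Aa 48 h replicates 2 and 3, control 24 h replicates 1 and 3 and control 48 h replicates 1 and 2), with an adjusted p up to 0.16, and with no filter (0.0533), quantile normalisation (0.0577), only the 48 h groups (0.0765) and a trended, robust variance (0.0642). MVD, the decarboxylase that makes isopentenyl diphosphate, had values of 6.48, 5.19 and 6.34 in Aa cells and 6.37, 5.54 and 6.22 in control cells at 24 h, and 6.87, 6.08 and 6.61 in Aa cells against 6.14, 4.54 and 6.50 in control cells at 48 h. The groups overlapped at both times, and the changes of -0.04 (adjusted p = 0.956) and 0.795 (adjusted p = 0.181, and 0.0112 in the blocked fit) had an SE of 0.495.

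SQLE, the squalene epoxidase, is one of the rate-controlling enzymes of the pathway. It had log2 values of 11.54, 11.52 and 11.48 in Aa cells, against 12.34, 12.41 and 12.53 in control cells at 24 h. The second time point gave 11.41, 11.32 and 11.41 in Aa cells, against 12.62, 12.64 and 12.69 in control cells. The arrays of a group lay close together and the groups far apart. SQLE fell by 0.91 (SE 0.084, adjusted p = 8.25e-06) at 24 h and by 1.27 (SE 0.084, adjusted p = 4.26e-07) at 48 h. LSS, which closes the rings of lanosterol, changed by -0.45 (SE 0.175, adjusted p = 0.0518, and 0.00627 in the blocked fit) at 24 h and fell by 0.67 (adjusted p = 0.00628) at 48 h. LSS also passed as lower at 24 h with a filter at log2 6 (adjusted p = 0.048), hybridisation-control scaling (0.0136) and a trended, robust variance (0.0376), and over the mean of its 3 probe sets it was 0.418 and 0.376, with no call at either time.

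In the steps from lanosterol to cholesterol, 5 of 7 genes fell at 24 h (71.4%), where 22.8% of all genes were lower. At 48 h 4 fell (57.1%) and 2 rose (28.6%), against 33.9% and 30.6% of all genes, so the share that rose was near that of all genes. TM7SF2, a sterol reductase, had the largest fall among the sterol members. It had log2 values of 6.53, 6.27 and 6.05 in Aa cells, against 8.66, 7.95 and 8.29 in control cells at 24 h. The 48 h values were 6.20, 5.04 and 4.53 in Aa cells, against 8.84, 8.27 and 8.33 in control cells. The Aa arrays at 48 h were spread over more than 1 log2 unit, with replicate 1 the highest, but none reached a control array. TM7SF2 fell by 2.02 (SE 0.362, adjusted p = 0.000867) at 24 h and by 3.23 (SE 0.362, adjusted p = 1.8e-05) at 48 h, a 4.04-fold and a 9.36-fold fall. It had 1 probe set, so no second reading of it was made.

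MSMO1, the methylsterol monooxygenase, had log2 values of 12.43, 12.40 and 12.15 in Aa cells, against 13.10, 13.07 and 13.13 in control cells at 24 h, and fell by 0.77 (adjusted p = 6.95e-05). At 48 h it fell by 0.71 (adjusted p = 7.18e-05). SC5D, a sterol desaturase, had log2 values of 9.25, 9.28 and 9.44 in Aa cells, against 10.21, 10.04 and 10.23 in control cells at 24 h. It fell by 0.83 (adjusted p = 0.000305) at 24 h and by 0.33 (adjusted p = 0.0396, and 0.00407 in the blocked fit) at 48 h. The 48 h call of SC5D was lost without Aa 48 h replicate 1 or 2, control 24 h replicate 1 or control 48 h replicate 3 (adjusted p up to 0.146), and with no filter (0.052), quantile normalisation (0.0739) and only the 48 h groups (0.0949). Over the mean of its 2 probe sets SC5D was 0.396 at 24 h (adjusted p = 0.117) and 0.433 at 48 h (adjusted p = 0.0741), which ends both calls. DHCR7, the reductase of the last step of 1 branch, fell by 0.56 (adjusted p = 0.0466) and by 0.57 (adjusted p = 0.0347), and its second probe set fell by 0.58 and 0.48. In the blocked fit the adjusted p of DHCR7 was 0.000432 at 24 h and 0.000259 at 48 h. The 24 h call of DHCR7 was lost without any single one of 6 arrays (Aa 24 h replicates 1 and 2, Aa 48 h replicate 1, control 24 h replicates 1 and 3 and control 48 h replicate 1, adjusted p up to 0.175), and the 48 h call without Aa 48 h replicate 1 or 2 or control 48 h replicate 1 or 3 (adjusted p up to 0.127). The 24 h call was lost too with no filter (adjusted p = 0.0989), equal array medians (0.0503) and only the 24 h groups (0.0652), and the 48 h call with no filter (0.0753) and quantile normalisation (0.0536).

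NSDHL, a dehydrogenase that acts with MSMO1 in removing methyl groups from the sterol ring, changed direction between the times. It had log2 values of 9.29, 9.32 and 9.62 in Aa cells, against 9.75, 9.83 and 10.01 in control cells at 24 h. At 48 h it had 9.99, 9.93 and 10.07 in Aa cells, against 9.39, 9.32 and 9.86 in control cells. Aa arrays were below controls at 24 h and above them at 48 h. Aa cells averaged 9.409 at 24 h and 9.995 at 48 h, and control cells 9.865 and 9.526. The control difference of -0.34 did not pass by limma without the block (adjusted p = 0.283) and passed with it (0.0394). Aa cells were not tested between the times. NSDHL fell by 0.46 (adjusted p = 0.0268) at 24 h and rose by 0.47 (adjusted p = 0.0179) at 48 h, with its second probe set at -0.35 and 0.25. In the blocked fit the adjusted p of NSDHL was 0.00208 at 24 h and 0.00128 at 48 h. The 24 h call was lost without Aa 24 h replicate 1 or 2 or control 24 h replicate 2 or 3 (adjusted p up to 0.094), and the 48 h call without Aa 48 h replicate 3 or control 48 h replicate 1 or 2 (adjusted p up to 0.0738). With hybridisation-control scaling the 48 h change was 0.028.

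HSD17B7, the reductase of the same demethylation steps, was the other gene of this step that rose at 48 h. It had log2 values of 10.66, 11.03 and 10.91 in Aa cells, against 10.50, 10.59 and 10.48 in control cells at 48 h. The groups did not overlap by a narrow margin. Its change was 0.31 (adjusted p = 0.08, and 0.0124 in the blocked fit) at 24 h and 0.34 (adjusted p = 0.0424, and 0.00554 in the blocked fit) at 48 h. The 48 h call was lost without any single one of 7 arrays (Aa 24 h replicate 1, Aa 48 h replicates 2 and 3, control 24 h replicate 3 and all control 48 h replicates, adjusted p up to 0.145), and with no filter (0.0602), equal array medians (0.0619) and only the 48 h groups (0.0545). The value was -0.096 with hybridisation-control scaling. Its 1 probe set carries the suffix for probes that can match other transcripts, so this reading is uncertain. EBP, a sterol isomerase, changed by -0.05 (adjusted p = 0.814) and 0.0012 (adjusted p = 0.995), and at 48 h it passed as lower with hybridisation-control scaling (-0.44, adjusted p = 0.0443).

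Of the sterol transport genes, STARD4, which carries cholesterol between membranes, had log2 values of 9.51, 9.91 and 9.33 in Aa cells, against 10.12, 10.28 and 9.99 in control cells at 24 h. The second time point gave 9.40, 9.66 and 9.34 in Aa cells, against 10.49, 10.54 and 10.58 in control cells. The groups were closer at 24 h than at 48 h, and STARD4 fell by 0.55 (adjusted p = 0.0108) and by 1.07 (adjusted p = 9.42e-05). NPC1, which exports cholesterol from lysosomes, fell by 0.54 (adjusted p = 0.0245) at 24 h and changed by -0.34 (adjusted p = 0.113) at 48 h. In the blocked fit the adjusted p of NPC1 was 0.0195 at 24 h and 0.0961 at 48 h. The 24 h call of NPC1 was lost without Aa 24 h replicate 1 or 3 or control 24 h replicate 2 or 3 (adjusted p up to 0.0797), and over the mean of its probe sets (-0.23, adjusted p = 0.239). At 48 h NPC1 passed as higher over the mean of its probe sets (0.687, adjusted p = 0.00232) and as lower with hybridisation-control scaling (-0.777, adjusted p = 0.00139). NPC2, its soluble partner, changed by 0.03 (adjusted p = 0.803) and 0.08 (adjusted p = 0.525), and both values were below 0 with hybridisation-control scaling.

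**Figure D2:**
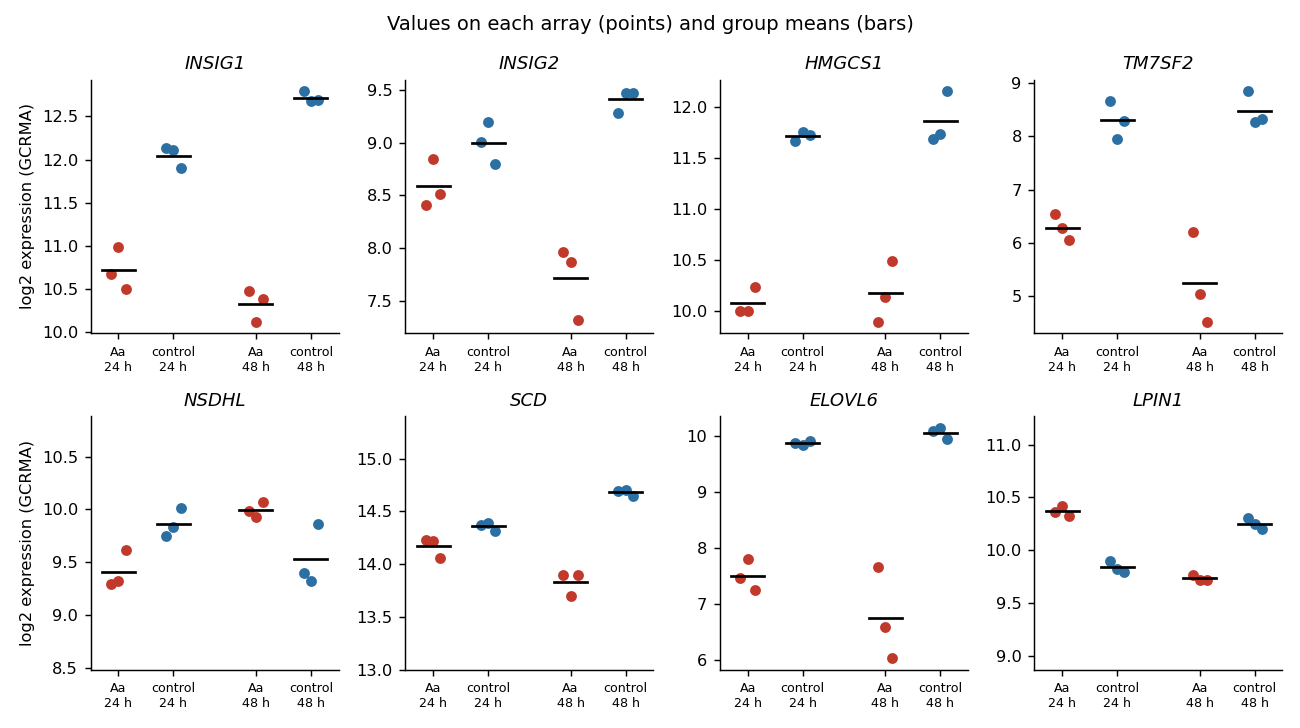
Log2 expression on each array (points) with the group mean (bars) for 8 members, Aa left of control at each time; vertical ranges differ between panels. INSIG1, HMGCS1, TM7SF2 and ELOVL6 have no overlap between Aa and control arrays at either time, and NSDHL and LPIN1 change order between 24 h and 48 h.

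The fatty acid and lipid genes did not move as 1 group. Of 6 tested, 1 fell (16.7%) and 1 rose (16.7%) at 24 h by limma, where 22.8% of all genes were lower and 26.3% higher. At 48 h 4 fell (66.7%) and 0 rose, against 33.9% and 30.6% of all genes. Those 4 were also the ones with an unadjusted p under 0.05 at 48 h. In the blocked fit FASN passed upward. ELOVL6, the elongase that extends palmitate, had log2 values of 7.46, 7.80 and 7.25 in Aa cells, against 9.87, 9.84 and 9.90 in control cells at 24 h. The 48 h values were 7.66, 6.58 and 6.04 in Aa cells, against 10.09, 10.14 and 9.94 in control cells. Control arrays were close together, and the Aa arrays at 48 h were spread, with replicate 1 the highest, as for TM7SF2. ELOVL6 fell by 2.37 (SE 0.316, adjusted p = 0.000115) and by 3.30 (SE 0.316, adjusted p = 5.68e-06), a 5.16-fold and a 9.84-fold fall. These were the largest falls among the brightest probe sets of the 30 members. Over the mean of its 3 probe sets ELOVL6 changed by -1.531 at 24 h and -2.684 at 48 h, less than TM7SF2.

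SCD, the desaturase that makes oleate from stearate, was read by 4 probe sets. The brightest had log2 values of 14.23, 14.22 and 14.06 in Aa cells, against 14.37, 14.39 and 14.32 in control cells at 24 h. By 48 h the values were 13.90, 13.70 and 13.90 in Aa cells, against 14.70, 14.70 and 14.65 in control cells. The groups did not overlap at either time. It changed by -0.19 (SE 0.0919, adjusted p = 0.106) at 24 h and fell by 0.85 (SE 0.0919, adjusted p = 1.38e-05) at 48 h. The other 3 probe sets of SCD, each dimmer, changed by -0.70, -1.11 and -1.17 at 24 h and by -1.79, -2.38 and -2.64 at 48 h, and all passed in the fit over probe sets (adjusted p up to 0.00204 at 24 h). The brightest passed at 24 h with no filter (adjusted p = 0.0498), hybridisation-control scaling (0.0197) and a trended, robust variance (0.0271).

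LPIN1, which encodes a phosphatidate phosphatase of glycerolipid synthesis, was the member that rose at 24 h. It had log2 values of 10.36, 10.42 and 10.32 in Aa cells, against 9.90, 9.82 and 9.79 in control cells at 24 h. At 48 h it had 9.76, 9.72 and 9.71 in Aa cells, against 10.30, 10.25 and 10.20 in control cells. Aa arrays were above all controls of 24 h and below all controls of 48 h. LPIN1 rose by 0.53 (SE 0.0801, adjusted p = 0.000277) and fell by 0.52 (SE 0.0801, adjusted p = 0.00019). At 24 h 1 of its 3 probe sets lay below 0 (-0.11), and at 48 h all 3 fell. The 24 h rise was 0.245 (adjusted p = 0.154) with hybridisation-control scaling and 0.221 (adjusted p = 0.125) over the mean of the probe sets.

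ACLY, ACACA and FASN are the enzymes of the core route to palmitate. ACLY, which supplies cytosolic acetyl-CoA, had log2 values of 12.63, 12.64 and 12.47 in Aa cells, against 12.72, 12.73 and 12.76 in control cells at 24 h, and changed by -0.16 (adjusted p = 0.18) and -0.18 (adjusted p = 0.101, and 0.0487 in the blocked fit). At 48 h ACLY also passed as lower with no filter (adjusted p = 0.0457), a trended, robust variance (0.0427) and hybridisation-control scaling (-0.624, adjusted p = 0.00103), the last of which gave -0.44 (adjusted p = 0.0142) at 24 h. The other 2 probe sets of ACLY changed by -0.38 and -0.36 at 24 h (adjusted p = 0.00899 and 0.0395 in the fit over probe sets). ACACA, which makes malonyl-CoA, changed by 0.10 (adjusted p = 0.501) at 24 h, a value that turned to -0.184 with hybridisation-control scaling, and fell by 0.40 (adjusted p = 0.00881) at 48 h. FASN, the fatty acid synthase, had log2 values of 10.74, 9.72 and 10.70 in Aa cells, against 10.60, 10.11 and 10.38 in control cells at 24 h. The 48 h values were 10.80, 10.03 and 10.73 in Aa cells, against 10.40, 9.63 and 10.24 in control cells. Replicate 2 was the lowest in every group, and the groups overlapped. FASN changed by 0.02 (adjusted p = 0.957) and 0.43 (adjusted p = 0.244, and 0.00911 in the blocked fit), and was -0.26 and -0.007 with hybridisation-control scaling.

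**Figure D3:**
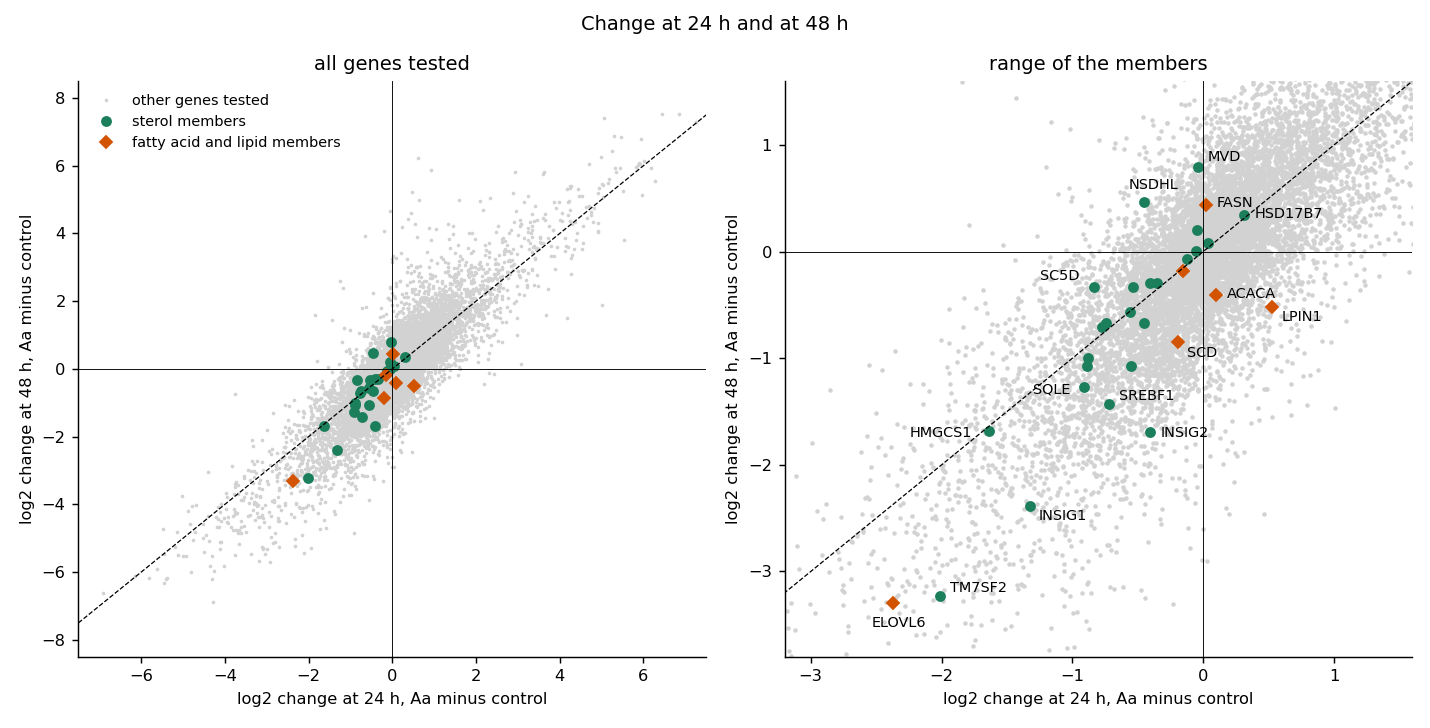
Log2 change at 24 h (horizontal) against log2 change at 48 h (vertical), both Aa minus control, for all 11184 genes tested (left) and over the range of the members (right); the dashed line marks equal changes. Members lie mostly in the lower left, with INSIG1, INSIG2 and SCD below the line and NSDHL above it.

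The difference between the 48 h change and the 24 h change was tested in the same fit. It passed for 6 of 30 members (20%), 5 of them with a lower change at 48 h. That is near the share of all genes, of which 19.5% passed, 12.7% lower and 6.8% higher. INSIG2 (-1.28, SE 0.258, adjusted p = 0.00871), INSIG1 (-1.06, SE 0.196, adjusted p = 0.00642) and SCD (-0.66, SE 0.13, adjusted p = 0.00823) had a more negative change at 48 h. Of these, INSIG2 and SCD had not passed at 24 h. LPIN1 (-1.04, SE 0.113, adjusted p = 0.000593) and NSDHL (0.92, SE 0.213, adjusted p = 0.015) reversed. ACACA (-0.50, adjusted p = 0.0493, and 0.0186 in the blocked fit) lost the call on leaving out any single array other than Aa 48 h replicate 2, with an adjusted p up to 0.112. It was also lost with no filter (0.0531), quantile normalisation (0.101) and the mean of its probe sets (0.134). HMGCS1 had a difference of -0.05 (SE 0.233, adjusted p = 0.904). In the blocked fit 11 members passed, with SREBF1, SQLE, TM7SF2, SC5D and STARD4 added (adjusted p of 0.00614, 0.0225, 0.0188, 0.00876 and 0.0246), while 38.6% of all genes passed.

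Vehicle cells were compared between the times in the same fit. Of 30 members 0 passed by limma between control at 48 h and control at 24 h, where 0.635% of all genes passed, and 9 had an unadjusted p under 0.05. INSIG1 had the largest difference, 0.67 (adjusted p = 0.0561), followed by MSMO1 with 0.42 (adjusted p = 0.0709) and LPIN1 with 0.41 (adjusted p = 0.0515). In the blocked fit 7 members passed, 6 higher and 1 lower at 48 h, with adjusted p of 0.0142 for INSIG1, 0.0162 for MSMO1, 0.0311 for SC5D, 0.0383 for STARD4, 0.0328 for SCD, 0.00672 for LPIN1 and, the lower one, 0.0394 for NSDHL, while 14.9% of all genes passed. For INSIG1, INSIG2, SCD and LPIN1 the 48 h change sets Aa cells against control cells that stood 0.67, 0.41, 0.32 and 0.41 above those of 24 h. For NSDHL the control cells of 48 h stood 0.34 below those of 24 h (adjusted p = 0.283 by limma without the block).

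Probe sets of the same gene did not always go the same way. Of the 18 members with more than 1 probe set above the filter, INSIG1, HMGCS1, MVK, SQLE, NSDHL, DHCR7, ACLY, SCD and SREBF2 had all of them on 1 side at each time. For LSS, 1 dimmer probe set averaged log2 7.47 in Aa cells and 5.30 in control cells at 24 h and rose by 2.17 and 2.56 (adjusted p = 0.000239 and 4.23e-05 in the fit over probe sets, where 24.3% and 28.2% were higher), while the other 2 probe sets lay below 0. For SC5D, a dimmer probe set rose by 1.63 and 1.20 (adjusted p = 0.00177 and 0.00753). A dimmer probe set of IDI1 averaged log2 7.36 in Aa cells and 4.92 in control cells at 48 h (log2 change 2.43, adjusted p = 4.27e-06). A dimmer probe set of NPC1 averaged log2 6.46 in Aa cells at 48 h and lay under log2 4 on average in control cells (adjusted p = 3.48e-05). For ELOVL6, 1 of 3 probe sets changed by 0.49 at 24 h and -0.51 at 48 h, while the other 2 changed by -2.37 and -2.72 at 24 h and by -3.30 and -4.24 at 48 h. Which transcripts these probe sets detect was not tested.

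**Figure D4:**
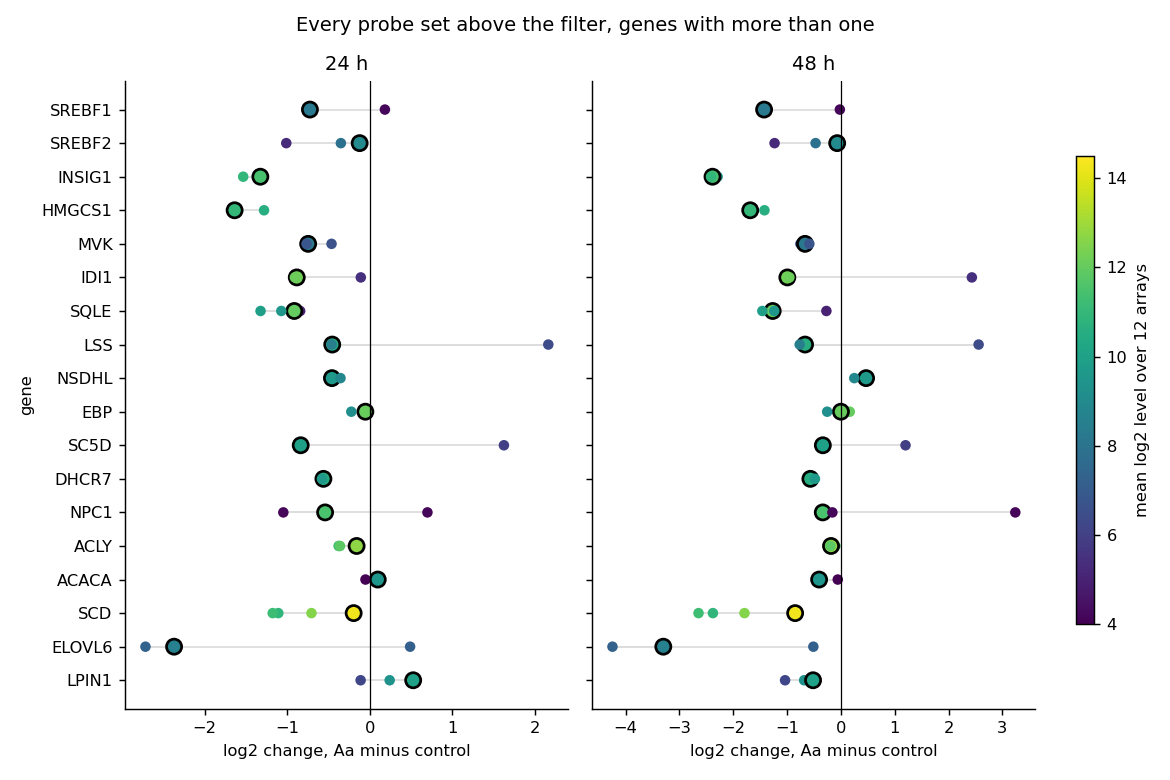
Log2 change, Aa minus control, of each of 50 probe sets above the filter for the 18 members with more than 1 such probe set, at 24 h (left) and 48 h (right); colour gives the mean level over 12 arrays and a black ring marks the probe set used. The SCD points run from the brightest, nearest 0, to dimmer ones farther left, and 1 dim probe set each of LSS and SC5D lies right of 0 at both times.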

How the data were processed

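HK-2 cells exposed to Aa or vehicle for 24 h or 48 h were measured on 12 arrays, 3 per group. Values are log2 expression as deposited, and GCRMA is the tool named for them, per the submitters' processing notes. Its version, and whether other arrays were normalised with these 12, is not stated in the sources. Such a step sets arrays to nearly 1 distribution, so a shift shared by most transcripts would not appear. Of 54675 probe sets, 62 were controls; the platform annotation pairs 41091 with 1 gene, 1801 with more and 11721 with no gene. RefSeq (GRCh38.p14) held 41037 of the single-gene ones by Entrez number. Genes over log2 4 on at least 3 arrays entered a limma fit (version 3.58.1, R 4.3.3) of 4 group means (lmFit and eBayes, 8 residual and 2.79 prior degrees of freedom) and called at a Benjamini-Hochberg adjusted p under 0.05 over all 11184 genes. The median SE of a change was 0.161, or 0.227 between times. The fit was checked on simulated data with independent arrays and with planted changes larger than many of the calls here. That check therefore does not cover the replicate pairing described below or the smaller calls. P-values measure the spread between replicates as labelled.

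The members, steps, other pathway genes and alternatives were chosen with earlier results of these data known. All members are named, and of other pathway lists the genes with the 2 largest called rises and falls per time, with ABCA1 and ABCG1 added. Replicate numbers were checked for pairing: deviations from group means correlated at 0.279 to 0.577 in the 18 same-numbered pairs of different groups and at -0.371 to -0.0286 in the 36 others, so the numbers paired the samples, although what they shared is not given. The main fit did not use this pairing and treated the arrays as independent, so its SEs and adjusted p-values are unpaired. With the replicate block, members called rose from 6 to 11 between times and from 0 to 7 between controls. Calls from the main fit are thus conditional on leaving the pairing out. Alternatives covered the replicate block, filters, scalings, probe sets, a floor, the samples fitted, the variance model and each array left out. Hybridisation-control scaling shifts each array to equal spiked bacterial controls.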

Additional observations from a re-analysis of the deposited data

Results flagged for a closer look

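These 6 differences between times are listed because the effect of Aa at 48 h differed from that at 24 h in the limma fit. They are 20% of the 30 members tested, near the 19.5% of all genes that passed. The 48 h change minus the 24 h change was -1.28 for INSIG2 (adjusted p = 0.00871), -1.06 for INSIG1 (adjusted p = 0.00642) and -0.66 for SCD (adjusted p = 0.00823), genes with lower values in Aa cells at 48 h. It was -1.04 for LPIN1 (adjusted p = 0.000593) and 0.92 for NSDHL (adjusted p = 0.015), which passed in opposite directions at the 2 times. It was -0.50 for ACACA (adjusted p = 0.0493, and 0.0186 with the replicate block). ACACA lost the call on leaving out any single one of 11 of the 12 arrays (adjusted p up to 0.112). Control cells at 48 h stood 0.67 (INSIG1), 0.41 (INSIG2), 0.32 (SCD) and 0.41 (LPIN1) above those at 24 h, and 0.34 below for NSDHL. These control values enter the differences. With 3 samples in a group, single samples were not screened for standing apart.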

How the results depend on the processing

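The hybridisation-control scaling moved the median of all genes to -0.265 at 24 h and -0.468 at 48 h, with 34.6% and 53% of genes called lower, and gave 21 and 23 lower members. Members called lower stayed within 1.5 times of 17 at 24 h (14 to 21, and 13 to 18 with 1 array left out) and of 19 at 48 h (16 to 23, and 16 to 20). With the replicate block, 11 members differed between times (9 lower, 2 higher) and 7 between controls (6 higher, 1 lower), and the higher calls numbered 2 at 24 h and 5 at 48 h. Over all genes, 61.5% then passed at 24 h and 73.3% at 48 h in either direction, against 49.1% and 64.5% without the block. Between times 4314 genes passed with the block and between controls 1669, against 2179 and 71 without it. Among the members it changed no call other than those given. Higher calls at 24 h numbered 0 with hybridisation-control scaling and with the mean of all probe sets, and at 48 h 1 with no filter, equal array medians and only the groups of the contrast, 0 with hybridisation-control scaling, and 0 to 2 with 1 array left out. Higher differences between times numbered 2 with quantile normalisation, 3 with the mean of all probe sets and 1 to 2 with 1 array left out. Between controls 1 member passed with no filter and over log2 6, 2 with a floor at log2 4 (both higher) and with hybridisation-control scaling (2 lower), 4 with trend and robust, and 0 to 3 with 1 array left out. Signs turned over the mean of all probe sets for LSS (0.418 and 0.376), SC5D (0.396 and 0.433), IDI1 (0.236 at 48 h), NPC1 (0.687 at 48 h, a call as higher), FASN (-0.006 at 24 h) and EBP (-0.018 at 48 h). That mean takes in probe sets under the filter, which read little but background. Such probe sets averaged log2 2.75 for FASN, 2.87 for NPC1, 3.00 for IDI1 and 2.24 for EBP. The second probe set of ACACA, at 4.035, lay barely over the filter. Signs also turned with hybridisation-control scaling for NPC2 (-0.248 and -0.363), ACACA (-0.184), FASN (-0.26 and -0.007), SCAP (-0.233), HSD17B7 (-0.096) and EBP (-0.44 at 48 h, a call as lower), and with equal array medians for EBP (-0.022). With 1 array left out some values of members that passed at neither time turned: at 24 h SREBF2 ran from -0.32 to 0.061, SCAP from -0.141 to 0.115, MVD from -0.29 to 0.368, EBP from -0.173 to 0.031, NPC2 from -0.032 to 0.081 and FASN from -0.152 to 0.357, and at 48 h SREBF2 from -0.233 to 0.145 and EBP from -0.128 to 0.129. The cause of these changes was not tested.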

Other observations

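Genes of the branches that leave the mevalonate pathway, which make ubiquinone, dolichol and the lipid anchors of proteins, went both ways. Of 7 tested among 9 listed, 3 rose and 2 fell at 24 h (71.4% called), and 1 rose and 3 fell at 48 h (57.1% called), with medians of -0.002 and -0.10. Of all genes 49.1% were called at 24 h and 64.5% at 48 h. The subunits of the synthase that makes the ubiquinone side chain moved apart. PDSS1 averaged log2 8.64 in Aa cells and 7.555 in control cells at 24 h, and 8.81 and 6.76 at 48 h (log2 changes 1.09 and 2.05, adjusted p = 0.000604 and 3.8e-06). PDSS2 averaged log2 4.515 in Aa cells and 7.24 in control cells at 24 h (log2 change -2.72, adjusted p = 2.43e-07). At 48 h all 3 Aa arrays of PDSS2 lay under log2 4, against a control mean of 7.48, a fall of at least 11.1-fold (adjusted p = 8.37e-09). COQ2, the transferase that attaches that side chain, fell by 0.84 at 24 h and by 0.43 at 48 h. GGPS1, the geranylgeranyl diphosphate synthase, rose by 0.56 at 24 h and changed by 0.24 at 48 h (adjusted p = 0.162). DHDDS, of dolichol synthesis, changed by -0.26 at 24 h (adjusted p = 0.1535) and fell by 0.50 at 48 h.

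Of 21 tested genes among 26 listed for other steps of fatty acid and glycerolipid synthesis, 3 rose (14.3%) and 8 fell (38.1%) at 24 h, where 26.3% of all genes were higher and 22.8% lower. At 48 h 3 rose (14.3%) and 11 fell (52.4%), against 30.6% and 33.9% of all genes. The medians were -0.37 and -0.59. SCD5, a second stearoyl desaturase gene, averaged log2 8.45 in Aa cells and 10.31 in control cells at 24 h, and 7.44 and 10.54 at 48 h, a 3.63-fold and an 8.59-fold fall (adjusted p = 7e-04 and 1.06e-05). HSD17B12, the reductase of long-chain elongation, fell by 1.16 at 24 h (adjusted p = 3.83e-06) and by 0.92 at 48 h (adjusted p = 1.025e-05). ACSS2, which makes acetyl-CoA from acetate, fell by 1.00 at 24 h (adjusted p = 8.59e-05) and by 1.36 at 48 h (adjusted p = 5.18e-06). ACACB, the mitochondrial acetyl-CoA carboxylase, rose 3.65-fold at 24 h and 1.82-fold at 48 h. GPAM, an acyltransferase of glycerolipid synthesis, rose 1.88-fold at 24 h and did not pass at 48 h (adjusted p = 0.0717). DGAT1 and DGAT2, which complete triglyceride synthesis, rose by 1.19 (adjusted p = 0.00157) and 0.94 (adjusted p = 0.000394) at 48 h. At 24 h DGAT1 changed by -0.39 (adjusted p = 0.229) and DGAT2 rose by 0.60 (adjusted p = 0.00914). Values in these paragraphs are from limma and the brightest probe set of each gene.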
